A study of Mus musculus with 4 samples.

Results

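The TRIM (tripartite motif) genes encode a family of mostly RING-type ubiquitin ligases. The members are all mouse genes whose symbol is Trim followed by a number and whose RefSeq accession is carried by a probe: 66 genes with 102 probes, of 23461 genes and 56605 probes in all. The gene table held 69 such symbols, and no probe matched Trim23, Trim30c or Trim43a. Of the 66, 47 were well above background on at least 2 of the 4 arrays and entered the tests, and 43 of those on all 4. Trim50 and Trim60 were above background on the wild-type PBS array alone and Trim55 on the wild-type LPS array alone. The other 16 were well above background on no array, among them Trim5, Trim6, Trim30b, Trim34b and Trim38.

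The study measured whole-brain RNA in 2 genotypes, wild-type and Nav1.8CreROSA26DTA, each injected with PBS or with LPS, the endotoxin of Gram-negative bacteria used to model sepsis. The 4 groups are wild-type with PBS, Nav1.8CreROSA26DTA with PBS, wild-type with LPS and Nav1.8CreROSA26DTA with LPS, with 1 array each. The LPS dose was 20 mg per kg body weight, intraperitoneally, and brains were harvested 12 hours later; age, sex and strain were not given in the sources used here. In Nav1.8CreROSA26DTA mice, Scn10a, which encodes the voltage-gated channel Nav1.8, drives Cre, and Cre turns on diphtheria toxin fragment A from ROSA26, which kills the cells that make Cre, chiefly peripheral nociceptors whose cell bodies lie outside the brain.

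A TRIM protein joins a RING domain, 1 or more B-box zinc fingers and a coiled coil, through which it forms dimers, to a C-terminal part that binds the target. Several are induced by interferon and attach ubiquitin to viral proteins or to the sensors and adaptors of innate immunity, such as RIG-I. Others act in axons and at the cytoskeleton, in chromatin, in muscle or in germ cells.

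All 4 arrays lay on 1 slide, with both PBS arrays in one row and both LPS arrays in the other, so that slide row and agent cannot be told apart, nor slide column and genotype. The share of spots well above background ran from 66.5% to 69.5%, no spot was saturated, and the 75th percentile of signal, to which each array was scaled, ranged from 514 to 726. Scn10a was well above background on all 4 arrays and lay 0.33 lower on the log2 scale in the Nav1.8CreROSA26DTA brain after PBS and 0.47 higher after LPS, so its level in whole brain did not separate the genotypes. All 5 neuronal markers were well above background on every array. In whole tissue, fewer cells of a type and less RNA per cell cannot be told apart.

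Of the 47 tested members 10 rose with LPS (limma, adjusted p under 0.05), where 5.62% of all genes did, and 8 of the 10 are of the interferon-induced group. The largest differences were those of Trim30d, Trim30a, the muscle gene Trim63 (which was not well above background with PBS), Trim34a and Trim21. Promoter sequence is shown for 6 of the 10 because of a motif they share, and for Trim26, which holds it and did not rise. The core of the interferon-stimulated response element, GAAA followed after any 2 bases by a second GAAA, was searched on both strands in RefSeq windows of 300 bases, from 250 before to 50 after the annotated start of the gene, on GRCm38.p6. It stood in 3.44% of all 32851 windows, and in 10 of 67 TRIM windows (14.9%). Of the 9 risen members with a window, 6 held it: Trim12a, Trim12c, Trim21, Trim30a, Trim30d and Trim34a. Trim25, Trim56 and Trim63 did not, and Trim16 had no window. Trim30a has 2 annotated starts, each with a match in its own window, and the sequence at the upstream start is shown. Of 25 members with a window that were tested and did not rise, Trim2 and Trim26 held it, and of 19 that were not tested, Trim5 did. The sequences below run 5′ to 3′ on the gene's strand, over 70 bases before the start and the first 30 after it, except that of Trim26, which begins 203 bases before it; capitals mark the motif or its reverse complement.
Trim30d, chr7:104507820-104507919, minus strand: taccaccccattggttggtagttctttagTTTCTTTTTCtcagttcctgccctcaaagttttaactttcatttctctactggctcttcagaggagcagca
Trim30a, chr7:104465164-104465263, minus strand: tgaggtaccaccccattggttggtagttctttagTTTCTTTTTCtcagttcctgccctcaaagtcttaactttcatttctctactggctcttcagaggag
Trim34a, chr7:104244387-104244486, plus strand: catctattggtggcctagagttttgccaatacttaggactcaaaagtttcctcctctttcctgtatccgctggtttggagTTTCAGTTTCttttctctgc
Trim21, chr7:102565453-102565552, minus strand: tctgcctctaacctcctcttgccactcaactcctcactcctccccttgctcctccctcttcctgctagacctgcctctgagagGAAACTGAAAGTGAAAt
Trim12a, chr7:104315466-104315565, minus strand: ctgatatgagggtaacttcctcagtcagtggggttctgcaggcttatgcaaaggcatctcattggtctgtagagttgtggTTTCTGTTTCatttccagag
Trim12c, chr7:104353320-104353419, minus strand: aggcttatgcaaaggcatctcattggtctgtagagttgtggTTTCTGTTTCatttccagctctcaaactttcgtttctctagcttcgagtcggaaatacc
Trim26, chr17:36836943-36837042, plus strand: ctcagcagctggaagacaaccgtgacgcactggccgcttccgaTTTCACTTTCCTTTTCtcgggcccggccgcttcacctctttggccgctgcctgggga

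The windows of Trim30a and Trim30d were identical at 276 of 294 aligned bases (93.9%), and those of Trim12a and Trim12c at 247 of 260 (95%). Those of Trim12a and the untested Trim5 were identical at 241 of 241 (100%). The shared motif in each of these pairs therefore counts related sequence more than once. In Trim21 a pair of overlapping matches lay just after the start, and in Trim26 a pair lay 160 and 154 bases before it. The gamma-activated sequence, TTC followed after any 3 bases by GAA, searched in the same way, stood in 8.3% of all windows, in none of the 9 risen members (0 of 9) and in 2 of the 25 tested and not risen, Trim45 and Trim46. A match is a run of letters, and binding there was not measured.

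**Figure D1:**
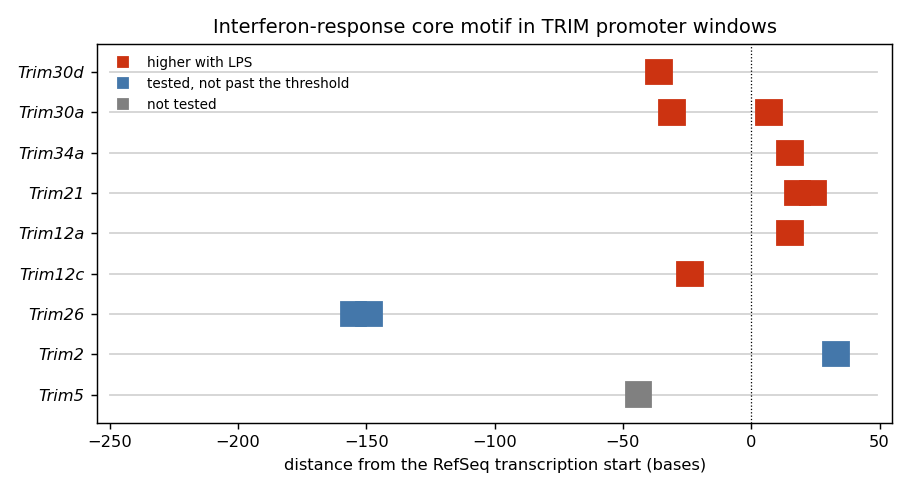
Position of the interferon-response core motif in the promoter windows of 9 TRIM genes, in bases from the annotated start of the gene (x axis), 1 line per gene. In Trim12a, Trim21 and Trim34a the matches lie just after the start, in Trim30d and Trim12c within 50 bases before it, and in Trim26 they begin 160 and 154 bases before it. The line of Trim30a joins the windows of 2 separate annotated starts. The match of one begins 2 bases after its own start and that of the other 36 bases before its own.

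The first comparison was LPS against PBS, averaged over the genotypes (2 arrays against 2). It asks how the brain's transcripts stood 12 hours after endotoxin. With LPS, 10 of the 47 tested members rose and 2 fell, while 35 did not pass. Trim63 entered the test through the LPS arrays alone, on which it was high, and so had to differ. Among the 43 members well above background on all 4 arrays, which leaves out Trim63 and Trim30d, 8 rose, and over all 16244 such genes 865 did. The background over all 17132 genes was 5.62% higher and 4.54% lower, against 21.3% and 4.26% of the members. The members' median log2 difference was -0.03, and that of all genes was also -0.03. The 35 that did not pass ran from -0.52 to 1.39. Of all genes, 963 rose and 777 fell, a split that became 963 and 1292 under median scaling, 996 and 564 under cyclic loess, 859 and 513 under normexp and 1043 and 433 in the authors' value table. In each of the 12 called members both LPS arrays lay on one side of both PBS arrays. A call nearly selects for that, so it adds no support. It held as well in members that did not pass, such as Trim2, Trim3, Trim26 and Trim44, and its share over all genes is not given here. All values below are log2 levels relative to the 75th percentile of the array, which stands at 0, and errors are standard errors of the limma fit over 4 arrays. The fit takes its spread from how far the genotypes part in their response, since no group has a second array, and whether an array holds 1 mouse or a pool was not given beyond the singular of its label.

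**Figure D2:**
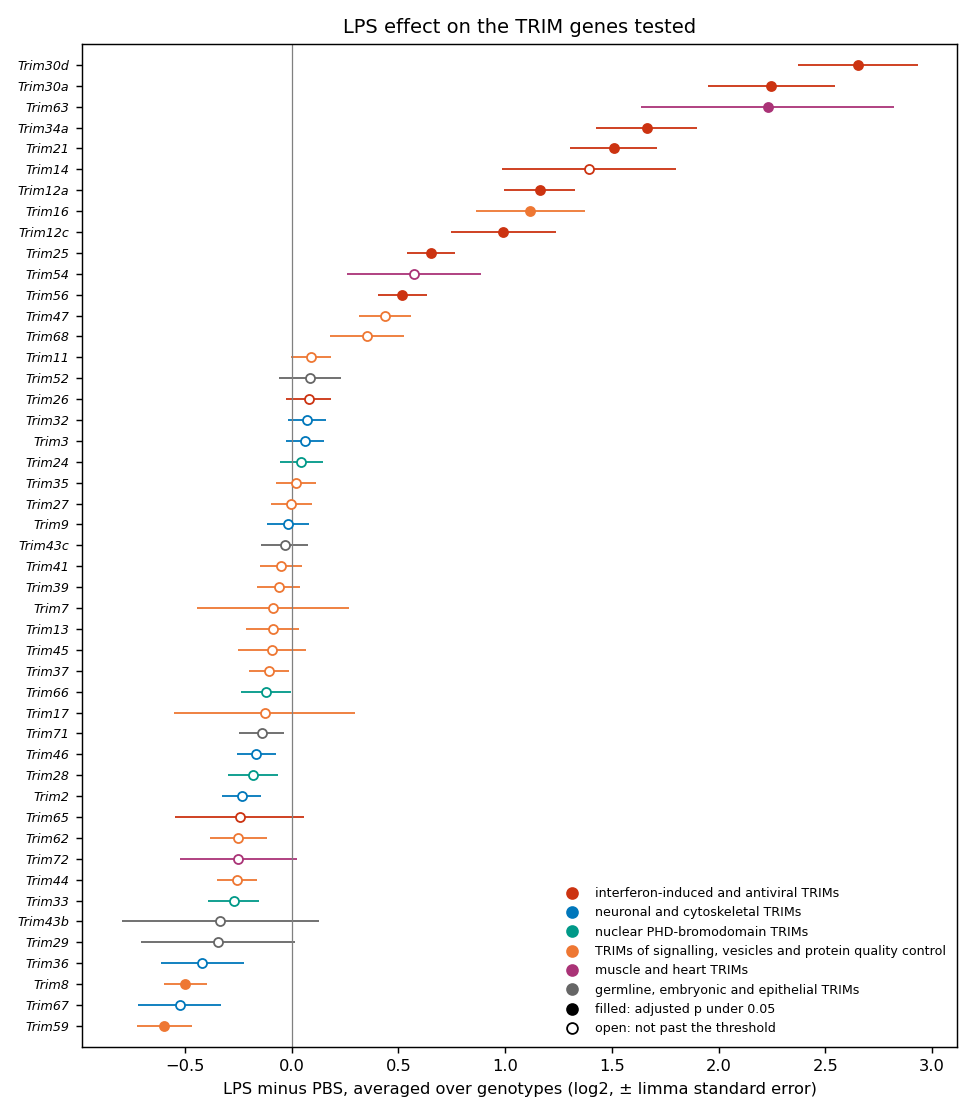
LPS against PBS for the 47 tested TRIM genes: log2 difference averaged over the genotypes (x axis) with its limma standard error, genes in order of the difference and coloured by role; filled points passed the test. The 10 filled points on the right run from 0.52 for Trim56 to 2.65 for Trim30d, and 8 of them are of the interferon-induced group.

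Of the interferon-induced and antiviral group, 17 genes were listed, 16 had a probe and 11 were tested: 8 rose, none fell (0 of 11), and the median difference was 1.16. Trim30d and Trim30a are murine members of a cluster beside the Trim5 relatives, and Trim30a is known to restrain Toll-like receptor signalling. Trim30a stood at -4.92 in the wild-type and -4.35 in the Nav1.8CreROSA26DTA brain with PBS, and at -2.09 and -2.69 with LPS. Both LPS arrays were high and both PBS arrays low, with no overlap. Trim30a rose by 2.25 ± 0.30, or 4.75-fold (limma, adjusted p = 0.00134), by 2.83 in the wild-type pair and 1.66 in the Nav1.8CreROSA26DTA pair. Trim30d stood at -5.47 and -5.91 with PBS, the second not well above background, and at -2.78 and -3.29 with LPS. The PBS arrays lay far below the LPS arrays. Trim30d rose by 2.65 ± 0.28 (limma, adjusted p = 0.000347). Its PBS signal in the Nav1.8CreROSA26DTA brain was not well above background, so that pair gives a bound of at least 6.12-fold for this probe. The bound sets the LPS level against the higher of the probe's own PBS level and the lowest PBS level of any probe well above background. A second Trim30d probe, well above background on 3 arrays, differed by 2.02 in the wild-type pair and by only 0.42 in the Nav1.8CreROSA26DTA pair.

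Trim34a, a relative of Trim5 that is induced by interferon, stood at -4.21 and -4.59 with PBS and at -2.33 and -3.14 with LPS, in the order wild-type then Nav1.8CreROSA26DTA. It was high in both LPS brains, more so in the wild-type. It rose by 1.66 ± 0.24, or 3.17-fold (limma, adjusted p = 0.00212). Trim21, the cytosolic receptor for antibody-coated virus, stood at -3.43 and -3.48 with PBS and at -1.65 and -2.24 with LPS. The PBS brains were alike and both LPS brains were above them. Trim21 rose by 1.51 ± 0.20, or 2.85-fold (limma, adjusted p = 0.00153).

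Trim12a and Trim12c are the mouse counterparts of the retroviral restriction factor TRIM5. Trim12a stood at -2.37 and -3.27 with PBS and at -1.12 and -2.20 with LPS. In each agent the wild-type array was the higher, and the LPS arrays did not overlap the PBS arrays, although the Nav1.8CreROSA26DTA LPS array lay only just above the wild-type PBS array. Trim12a rose by 1.16 ± 0.17, or 2.24-fold (limma, adjusted p = 0.00214). The value was 0.62 without the wild-type LPS array and 0.71 without the Nav1.8CreROSA26DTA PBS array. With 1 array left out the model holds agent alone, so these values also carry the difference between the genotypes. Within the pairs Trim12a rose by 1.25 in wild-type and by 1.08 in Nav1.8CreROSA26DTA. Trim12c stood at -4.24 and -4.44 with PBS and at -3.35 and -3.34 with LPS, with both genotypes close together. Trim12c rose by 0.99 ± 0.25 (limma, adjusted p = 0.0339).

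Trim25, the ligase that modifies the RNA sensor RIG-I, was the brightest of the group on the wild-type PBS array and stood at 0.82 and 1.09 with PBS and at 1.65 and 1.57 with LPS. Both LPS arrays were above both PBS arrays, by less than in the genes above. Trim25 rose by 0.65 ± 0.11, or 1.57-fold (limma, adjusted p = 0.0066). Trim56, which acts in the STING and Toll-like receptor pathways, stood at -0.45 and -0.26 with PBS and at 0.13 and 0.20 with LPS. Its 4 arrays were close, in the order of the agents. It rose by 0.52 ± 0.11 (limma, adjusted p = 0.0199).

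Trim14, an adaptor of mitochondrial antiviral signalling, did not pass: -5.05 and -4.16 with PBS, -2.68 and -3.75 with LPS. Only the wild-type LPS array stood well above the others. The difference was 1.39 ± 0.41 (limma, adjusted p = 0.066), and 0.86 without the wild-type LPS array. The other tested genes of the group that did not pass, named here after their values were seen, were Trim26 (0.08, adjusted p = 0.705) and Trim65 (-0.24, adjusted p = 0.689).

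**Figure D3:**
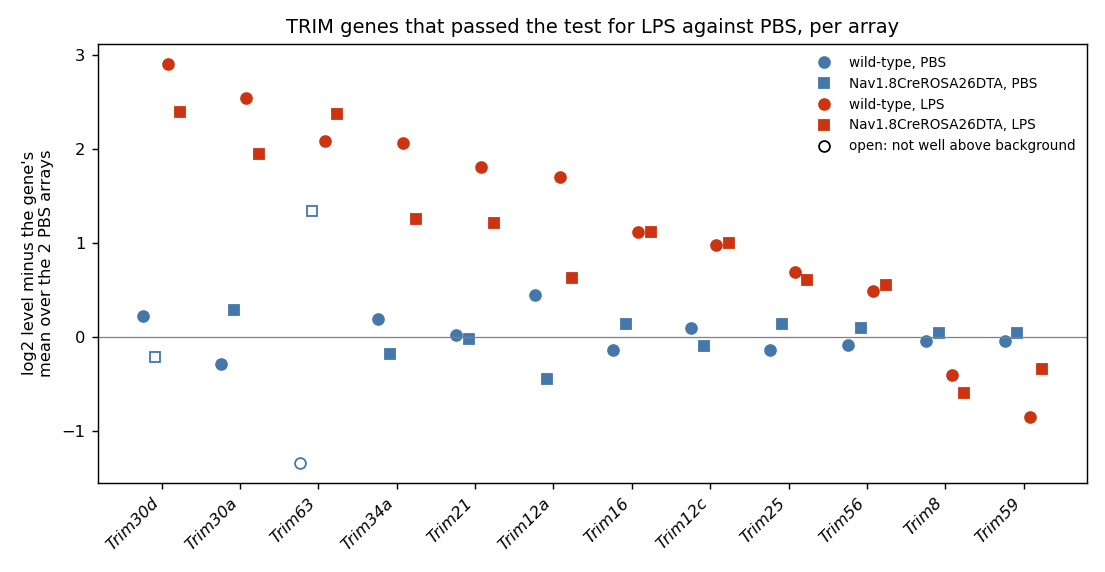
Log2 level minus the gene's mean over the 2 PBS arrays (y axis) on each of the 4 arrays, for the 12 TRIM genes that passed the test for LPS (x axis). Circles are wild-type, squares Nav1.8CreROSA26DTA, blue PBS and red LPS, and open marks are signals not well above background. In 10 genes both LPS arrays lie above both PBS arrays, and in Trim8 and Trim59 both lie below.

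Among the 21 genes of signalling, vesicles and protein quality control, 20 had a probe and 17 were tested: 1 rose and 2 fell, with a median of -0.09. Trim16, which acts in autophagy of damaged membranes, stood at -4.66 and -4.37 with PBS and at -3.40 and -3.40 with LPS. Both LPS arrays were higher, at the same level. Trim16 rose by 1.12 ± 0.25 (limma, adjusted p = 0.0239). Trim8, a ligase of cytokine signalling, was bright and stood at 2.68 and 2.76 with PBS and at 2.31 and 2.12 with LPS. Trim8 fell by 0.50 ± 0.10 (limma, adjusted p = 0.0138). Trim59 stood at 0.55 and 0.63 with PBS and at -0.26 and 0.25 with LPS, lowest in the wild-type LPS brain. Trim59 fell by 0.60 ± 0.13 (limma, adjusted p = 0.0182), and by 0.34 without the wild-type LPS array (adjusted p = 0.345). Trim44, the brightest of the list on the wild-type PBS array, stood at 5.45 and 5.45 with PBS and at 5.26 and 5.13 with LPS and did not pass (-0.26 ± 0.09, adjusted p = 0.129).

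None of the 7 neuronal and cytoskeletal members passed in either direction (0 of 7, median -0.17). Trim2, a ligase that acts on the neurofilament light chain and the brightest of the list on the wild-type PBS array, stood at 4.53 and 4.31 with PBS and at 4.22 and 4.15 with LPS. Both LPS values lay below both PBS values, by little more than the PBS values differed from each other (-0.23 ± 0.09, adjusted p = 0.161). The 7 differences ran from -0.52 to 0.07. None of the 4 chromatin members with a PHD finger and bromodomain passed (0 of 4, median -0.15). Trim28 (KAP1), the corepressor of zinc finger proteins that silences retroelements, was the brightest on the wild-type PBS array, at 3.77 and 4.05 with PBS and 3.82 and 3.64 with LPS. Its PBS and LPS values overlapped (-0.18 ± 0.12, adjusted p = 0.402).

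Of the 4 muscle and heart members 3 were tested. Trim63 (MuRF1), a ligase of muscle atrophy, was dim, not well above background, with PBS in both genotypes and well above it with LPS: its signals were 1.88 and 10.2 with PBS and 21.0 and 29.3 with LPS, in scanner units. The averaged difference is at least 2.33-fold (at least 2.67-fold in wild-type and 2.04-fold in Nav1.8CreROSA26DTA). The limma fit, which takes the dim PBS signals at face value, gave 2.23 ± 0.59 (adjusted p = 0.0461), but as Trim63 had to differ to be tested, that value supports nothing further. The call was lost under 5 of the 7 other settings run for it, and without the wild-type PBS array the value was 0.89 (adjusted p = 0.292), without the Nav1.8CreROSA26DTA PBS array 3.57 (adjusted p = 0.0259). Of the muscle markers, the summed level was 2.46 and 3.05 with PBS and 2.25 and 2.59 with LPS, none of the 6 tested was called (0 of 6, limma), and Ckm was above background on no array. Trim54 stood at -4.78 and -3.97 with PBS and at -3.68 and -3.93 with LPS, low on the wild-type PBS array and alike on the other 3 (0.57 ± 0.31, adjusted p = 0.32). Trim72 (MG53), which acts in membrane repair and was the brightest of the list on the wild-type PBS array, stood at -4.09 and -3.96 with PBS and at -4.11 and -4.43 with LPS (-0.25 ± 0.27, adjusted p = 0.646). Trim55 was measured on the wild-type LPS array alone. There it was at least 3.02-fold above the wild-type PBS array and at least 2.36-fold above the Nav1.8CreROSA26DTA LPS array. As Trim55 was measured only where it was high, it had to differ, and these bounds from 1 array support nothing further. Of the 13 germline, embryonic and epithelial members 5 were tested and none passed (0 of 5); Trim71, a regulator of stem cell and embryonic growth and the brightest of them on the wild-type PBS array, stood at 0.43 and 0.58 with PBS and at 0.33 and 0.40 with LPS (-0.14 ± 0.11, adjusted p = 0.486). Both erythroid members, Trim10 and Trim58, were above background on no array, while the summed level of the erythroid markers varied from 40.1 to 293.

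The genes around the family showed which neighbours in the pathway moved too. Among 9 TRIM-family genes with other symbols, 6 were tested and Rnf207 alone rose (0.65 ± 0.11, limma, adjusted p = 0.005). None of the 11 E2 enzymes that work with TRIM ligases passed (0 of 11, median -0.09). Of 16 RIG-I and Toll-like receptor pathway genes on which TRIM ligases act, 5 rose and none fell, led by Irf7 (4.14), Ddx58, which encodes RIG-I (1.54), and Dhx58 (1.54). Of 14 other interferon-induced genes, mostly of ubiquitin or ubiquitin-like modification, 13 were tested, 7 rose and none fell. The largest rises were those of the modifier Isg15 (3.38), its protease Usp18 (3.17) and, outside such modification, Xaf1 (1.85).

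The Trim12, Trim30 and Trim34 genes sit together on chromosome 7. From Trim6 to Trim30e-ps1 the gene table lists 21 genes, 11 of them TRIM genes; 10 had a probe, 5 were tested and all 5 rose, and no other gene of the stretch was tested. These close copies may share probe signal, since probe sequences were not used here, and their single values are uncertain for that reason.

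Several cell type markers moved with LPS as well. Of 5 microglial markers 3 fell, Cx3cr1, P2ry12 and Tmem119 (summed level 26.04 and 32.7 with PBS, 23.3 and 23.0 with LPS). Of the 5 tested neutrophil and monocyte markers 3 rose, S100a8, S100a9 and Ly6c2, while Mpo (-0.79) and Elane (-0.24) did not pass. The summed level of that list, mostly Ly6c2, was 7.16 and 10.3 with PBS and 28.6 and 27.0 with LPS. Ccr2 was too dim to be tested, with signals of 8.17 and 17.8 with PBS and 2.43 and 2.66 with LPS, in scanner units. Cd3g, Cd8a and Ms4a1, markers of lymphocytes, were above background on no array. Of the other marker lists, Gfap (1.89) and Aldh1l1 (0.41) of astrocytes rose and Gja1 (-0.46) fell, Cdh5 (1.05) of endothelium rose while Flt1 (-0.67) and Slco1a4 (-0.62) fell, Aqp1 (4.15) of choroid plexus rose, Mobp (0.54) of oligodendrocytes rose and Tubb3 (-0.58) of neurons fell (limma). The part of these cells in the rise of the interferon-induced members was not tested.

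The limits of the LPS comparison are those of 4 arrays. Fits with 1 array left out hold agent alone in the model, so a difference between the genotypes enters their values. With 1 array left out, the number of members higher was 2 without the wild-type PBS, 4 without the Nav1.8CreROSA26DTA PBS, 2 without the wild-type LPS and 4 without the Nav1.8CreROSA26DTA LPS array. Trim30a and Trim30d passed in all 4 of these fits and Trim12a, Trim12c, Trim16, Trim56 and Trim8 in none; without the intensity trend in the prior 3 members were higher and 0 lower. Normexp background correction added an offset of 50 to every signal before the log, which makes log2 differences of dim probes smaller by construction. Under it the differences of dim members were 0.98 for Trim30a, 0.91 for Trim30d and 0.34 for Trim12c, which no longer passed (limma, adjusted p = 0.0746).

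The second comparison, Nav1.8CreROSA26DTA against wild-type averaged over the agents, addresses whether ablation of Nav1.8-lineage cells alters brain transcripts. No member passed (0 of 47; limma), against 0.409% of all genes. At an unadjusted p under 0.05 there were 6 of 47 members (12.8%) and 1747 of 17132 genes (10.2%), a share near the background. The members' differences ran from -0.99 to 1.49 with a median of 0.04. Trim12a came closest: it was lower by 0.99 ± 0.17 in the Nav1.8CreROSA26DTA brains (limma, adjusted p = 0.0504), by 0.90 after PBS and 1.08 after LPS. It was lower in both pairs. Its second probe, dim on the Nav1.8CreROSA26DTA PBS array, gave -0.57 after PBS and -1.18 after LPS. Under median scaling Trim12a was called. Trim63 had the highest difference, which rests on its dim PBS signals. Beside these, the erythroid markers summed to 40.1 and 97.3 in wild-type and 293 and 155 in Nav1.8CreROSA26DTA brains with PBS and LPS. Hba-a1 made up most of each sum, and none of the 4 tested erythroid markers passed for genotype (0 of 4, limma). Of 5 oligodendrocyte markers 2 were higher in the Nav1.8CreROSA26DTA brains (limma). The part of these cells was not tested.

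Single pairs of arrays hold no replicate and get no test; a difference of at least 2-fold between arrays both well above background is described. With LPS in wild-type, 8 of 44 members were at least 2-fold higher and none lower, against 3.41% and 0.618% of all genes measured on both arrays. In Nav1.8CreROSA26DTA 5 of 44 were higher and none lower, against 3.1% and 1.42%. The wild-type 8 were Trim12a, Trim14, Trim16, Trim21, Trim30a, Trim30d, Trim34a and Trim54, and the other genotype's 5 were Trim12a, Trim12c, Trim21, Trim30a and Trim34a. Trim30d could not be counted in Nav1.8CreROSA26DTA, as its PBS signal there was not well above background. Its difference in that pair was 2.61 by the probe used and 0.42 by its second probe. Trim16 missed the cut in Nav1.8CreROSA26DTA with 0.97, and Trim12c missed it in wild-type with 0.88. Under normexp, which adds an offset of 50 to every signal before the log, the counts of 8 and 5 became 3 and 0. The share of all genes under normexp is not given here, so these counts have no background to be read against. After PBS no member of 45 differed 2-fold between genotypes (1.21% of genes higher and 0.415% lower), and after LPS Trim12a and Trim14 were lower in the Nav1.8CreROSA26DTA brain (0.829% and 0.369%).

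The LPS response itself differed by at least 2-fold between the genotypes for 3 of 43 members, against 2.5% of all genes either way. All 3 were smaller in Nav1.8CreROSA26DTA: Trim14 by 1.96 on the log2 scale, Trim30a by 1.17 and Trim54 by 1.06. Trim14 differed by 2.37 between the wild-type arrays and by 0.41 between the others. These are single differences of 4 arrays, so whether the responses differ beyond the spread between mice was not tested.

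**Figure D4:**
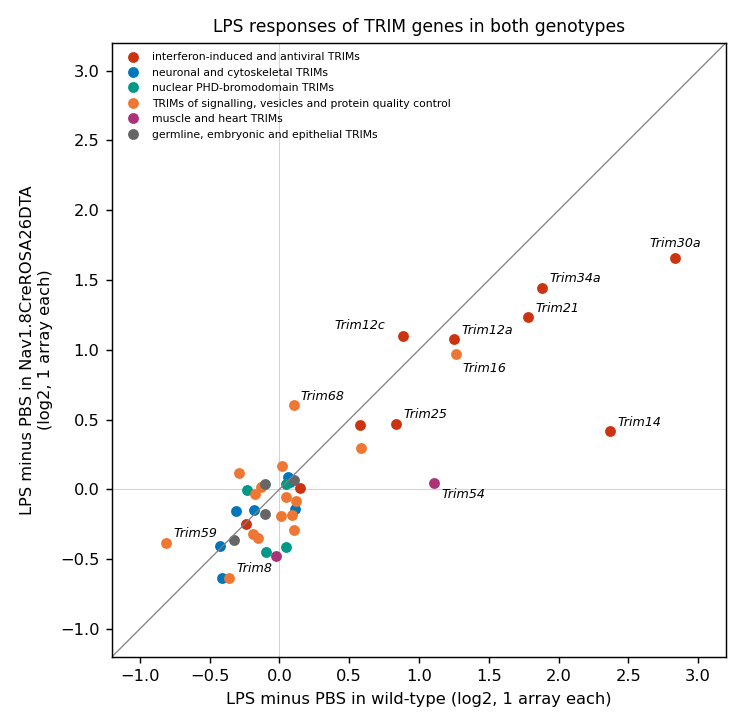
LPS against PBS in wild-type (x axis) and in Nav1.8CreROSA26DTA (y axis), log2 difference, 1 point per TRIM gene measured on all 4 arrays, with the line of equal response. Trim14, Trim30a and Trim54 lie furthest below the line.

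The probes of a gene give a check within an array. Of the 31 members with at least 2 probes, 21 had at least 2 measured, and the median SD of the LPS difference between them was 0.13, against 0.106 over 6330 genes. Both measured probes gave close values in Trim34a (1.66 and 1.72), Trim12a (1.16 and 1.05), Trim12c (0.99 and 0.96) and Trim16 (1.12 and 1.28). They were far apart in Trim30d, at 2.65 and 1.22, and Trim14, at 1.39 and 0.47. Trim8 gave -0.50 and -0.33. For Trim30d and Trim14 the size of the difference depends on the probe.

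**Figure D5:**
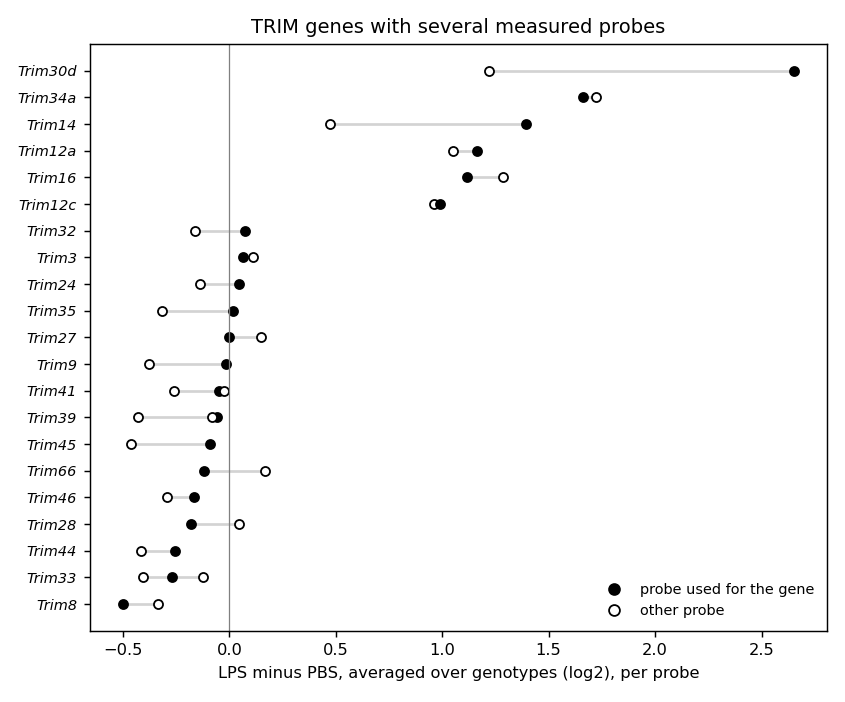
LPS against PBS, log2 difference averaged over the genotypes, for each measured probe (points) of the TRIM genes with at least 2 measured probes. Most probes of a gene lie close together, and those of Trim30d and Trim14 lie furthest apart.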

How the data were processed

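Total RNA from whole mouse brain, 1 array for each of 4 groups, was labelled with Cy3 and hybridised to single-colour Agilent arrays of 1 slide. Per the file headers, the deposited scanner intensity of each spot is the processed signal of Agilent Feature Extraction, background-subtracted and not scaled between arrays. The version is 11.0.1.1 per the submitters' processing notes and 12.0.3.1 per the file headers. The authors' deposited value table equals these intensities times 1 factor per array.

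From these intensities log2 levels were computed, minus the 75th percentile of each array. Control and outlier spots were left out, and the spots of a probe were averaged. Probes took their gene from the RefSeq accession on the array. A gene was represented by its probe well above background on most arrays, then by the brightest. Genes had to be well above background on at least 2 arrays. limma 3.58.1 in R 4.3.3 fitted agent plus genotype, with an intensity trend in the prior and Benjamini-Hochberg adjustment over 17132 genes. Each gene had 1 residual degree of freedom, so the spread came mostly from the prior (7.99 degrees of freedom). The fit was tested on simulated data.

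The members and gene lists were chosen with earlier results of these data known. Values on all arrays are given for members past adjusted p 0.05, for those with a difference or bound of at least 2-fold within a pair of arrays, and for the member of each role group that was brightest on the wild-type PBS array. Of the other lists, the 3 largest changes past the threshold are named. Alternatives changed the scaling, background correction, filter, prior and choice of probe, or used the authors' value table. Others left out 1 array, with agent alone in the model. Normexp used the median signal with an offset of 50 and was added after seeing the files. Promoter windows came from RefSeq on GRCm38.p6; probe sequences and proteins were not used here. The number of arrays limits the precision.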

Additional observations from a re-analysis of the deposited data

Results flagged for a closer look

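Among the members measured on all 4 arrays whose level on each array is given above, Trim28 alone differed with LPS in opposite directions in the genotypes. The difference was 0.047 on the log2 scale in wild-type and -0.41 in Nav1.8CreROSA26DTA. The trait is not particular to Trim28. Other members had it too, such as Trim45 (0.10 and -0.29), Trim41 (0.09 and -0.18) and Trim9 (0.11 and -0.14), in the same order. Each difference is 1 pair of arrays, and whether the genotypes differ was not tested.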

How the results depend on the processing

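With 10 members higher and 2 lower with LPS, the number higher ran from 8 to 14 under 7 of 8 other settings and was 3 without the intensity trend in the prior; the number lower was 1 under normexp, 1 in the authors' value table, 1 with the mean of all probes of a gene and 0 without the trend. Leaving out 1 array gave 2 to 4 higher and 0 to 1 lower. Apart from the fits with 1 array left out, Trim30d, Trim34a and Trim12a passed under every other setting that could be run for them. Trim63 lost its call under 5 of 7 and Trim59 under 3. In the fits with 1 array left out the difference ran from 2.39 to 2.91 for Trim30d. It ran from 1.26 to 2.07 for Trim34a and from 0.62 to 1.70 for Trim12a. Trim14 passed under median scaling and with no filter on dim probes. Of the genotype calls, 1 member passed under median scaling (Trim12a), 3 with no filter on dim probes (Trim12a, Trim55 and Trim63) and 0 otherwise. Under normexp 3 members were at least 2-fold higher with LPS in wild-type, in place of 8, and 0 in Nav1.8CreROSA26DTA, in place of 5. The matching share of all genes is not given here. The offset of 50 in normexp makes log2 differences of dim probes smaller by construction, and its part in these counts was not tested. The cause of the other changes was not tested, and no sign reversed. Over all genes, calls with LPS higher ran from 382 to 1583 and lower from 48 to 1567 over the 8 other settings, and genotype calls from 0 to 958. With 1 array left out a genotype difference rests on 1 pair and has no test. No paired analysis was possible because each group has 1 array, so the replicate number gives no block; the model already compares LPS with PBS within each genotype. Values near background, such as those of Trim63, rest on signals that the scanner could not separate from background.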
